A study of Mus musculus with 13 samples.

Results

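A list of 10 genes of the calcineurin and NFAT pathway were followed in mature CD4 single-positive thymocytes, before and after stimulation through the T cell receptor, in mice with and without cathepsin L in thymic epithelium. They were the factors Nfatc1, Nfatc2, Nfatc3 and Nfat5, the calcineurin catalytic subunits Ppp3ca, Ppp3cb and Ppp3cc, the regulatory subunit Ppp3r1, and the inhibitors Rcan1 and Cabin1. These are 10 of the 35906 genes in the deposited tables, and all 10 were among the 14241 genes that were abundant enough to be tested over the 13 libraries. The cells were M2 CD4SP thymocytes (CD69-MHCI+) sorted from Rag1-/- mice that carry the Lm54 T cell receptor transgene, so that all T cells express 1 receptor. The control mice were Ctsl fl/fl (WT in the labels, and below). CtslΔTEC mice lack Ctsl in thymic epithelial cells, through a Cre driven by Foxn1, and their thymocytes themselves keep the gene. Cells were taken unstimulated from 4 WT and 5 CtslΔTEC mice. In other mice, 2 WT and 2 CtslΔTEC, they were stimulated for 4 h with plate-bound LLO:Iab monomer at 1 μg/ml and soluble anti-CD28 at 250 ng/ml. Each library came from 1 mouse. The study describes adult mice of both sexes, and the labels give neither the age nor the sex of these mice. The stimulated and the unstimulated cells also differ in 4 h of culture and in the date carried by the deposited files, and these cannot be told apart from stimulation.

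Calcineurin is a calcium-activated phosphatase made of a catalytic A subunit, a regulatory B subunit and calmodulin. When the T cell receptor raises intracellular calcium, calcineurin removes phosphates from NFAT proteins in the cytoplasm, which lets them enter the nucleus, where they bind DNA together with partners such as AP-1. NFATc1 stands apart in the family because its gene has an alternative upstream promoter that NFAT itself can act on, which yields short NFATc1 isoforms in activated T cells. NFAT5 responds to osmotic stress and lacks the calcineurin docking region of its relatives. RCAN1 binds and inhibits calcineurin, and 1 of its promoters is a classic target of calcineurin and NFAT in other cells. Cabin1 is a large scaffold that inhibits calcineurin and represses MEF2 factors.

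The unstimulated libraries held 25692380 to 39127833 estimated counts and the stimulated ones 8085463 to 27184520. Stimulated WT mouse 5 was the shallowest, and every result that compares stimulated cells rests on 2 mice per genotype. Levels within a gene are given below as CPM, counts relative to the library total scaled by TMM factors, and levels between genes as TPM, which corrects for transcript length. Fold changes are on the log2 scale with their standard error (SE), and adjusted p-values come from edgeR's quasi-likelihood test with Benjamini-Hochberg adjustment over all genes, with a threshold of 0.1. All levels are relative to the rest of the RNA, and in bulk samples fewer cells of a type and less RNA per cell cannot be told apart. The labels were checked first. Cd69 was at 43.3 to 64.9 CPM in the unstimulated mice and at 2670 to 3378 CPM in the stimulated mice, and Cd4 was at 745 to 1156 CPM in every library. Rag1, deleted in all groups by the labels, was listed at 2.78 to 5.13 CPM in unstimulated WT and 4.51 to 26.5 CPM in unstimulated CtslΔTEC mice (log2 fold change 1.81, SE 0.48, adjusted p = 0.0332, edgeR), and at 0.265 to 0.582 and 1.07 to 1.44 CPM after stimulation. The files give levels per transcript, which do not show whether these reads lie outside the deleted part, so Rag1 does not check the label. Ctsl transcripts of the thymocytes do not test the epithelial deletion. Y-linked transcripts were present in all 5 unstimulated CtslΔTEC mice but in 1 of 4 unstimulated WT mice, and in 1 of 2 stimulated mice of each genotype. Genotype and sex are thus largely confounded in unstimulated cells. Sex is also unbalanced between unstimulated and stimulated mice, and so in the responses and their interaction. Markers of neighbouring stages moved with genotype. The summed level of 8 double-positive thymocyte markers was 311 to 412 CPM in unstimulated WT and 560 to 705 CPM in unstimulated CtslΔTEC mice, and 59.5 to 66.3 against 96.1 to 102 CPM after stimulation. That of 6 markers of mature CD4SP cells was 3371 to 3817 against 2301 to 2642 CPM, and 475 to 697 against 298 to 376 CPM. Of these lists, 5 of 7 tested double-positive markers were higher and 6 of 6 mature markers lower in unstimulated CtslΔTEC cells, and 3 of 8 were higher and 4 of 6 lower after stimulation. Of the double-positive markers, Ptcra was at or under 0.931 and Rag2 at or under 1.90 CPM in all libraries. Whether stage composition has a part in the genotype differences below was not tested.

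In unstimulated WT cells the order of the members by mean TPM was Ppp3cb (103), Nfatc3 (83.1), Ppp3r1 (79.3), Cabin1 (67.7), Nfatc1 (52.4), Ppp3cc (24.2), Nfat5 (22.7), Ppp3ca (22.0), Nfatc2 (16.3) and Rcan1 (6.73). The ranges over mice of neighbours overlapped from Ppp3cb down to Cabin1, and again from Ppp3cc down to Nfatc2, while Nfatc1 and Rcan1 stood clear of their neighbours. This order includes non-coding transcripts, as do the family shares and the ratio of Ppp3r1 given below. In unstimulated WT cells protein-coding transcripts held 72.2% of the TPM of Ppp3cb and 51.8% of that of Cabin1. They held 97.5% for Nfatc3, 97.6% for Ppp3r1 and 98.3% for Nfatc1, so the order of coding transcripts can differ. After stimulation Nfatc1 led the list with 285 TPM in WT and 417 TPM in CtslΔTEC cells, clear of Ppp3cb at 86.6 and 112 TPM. Rcan1 and Nfatc2 shared the last places with overlapping ranges, at 5.51 and 4.87 TPM in WT and 3.55 and 4.38 TPM in CtslΔTEC cells. The fourth calcium-regulated factor, Nfatc4, was listed as a partner rather than a member and lay between 1.29 and 4.69 CPM in all libraries.

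Stimulation changed most members. In WT cells 8 of 10 passed the threshold, against 67.7% of all 14241 genes tested, and in CtslΔTEC cells 8 of 10, against 71.2%. The number of members called was thus near the background of a comparison in which most genes moved. In each genotype the 1 member that rose was Nfatc1, while 32.9% of all genes rose in WT and 32.9% in CtslΔTEC cells, and 7 members fell, while 34.8% and 38.2% of all genes fell. The median log2 fold change of the members was -0.48 in WT and -0.85 in CtslΔTEC cells, and that of all genes 0.01 and -0.06.

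**Figure D1:**
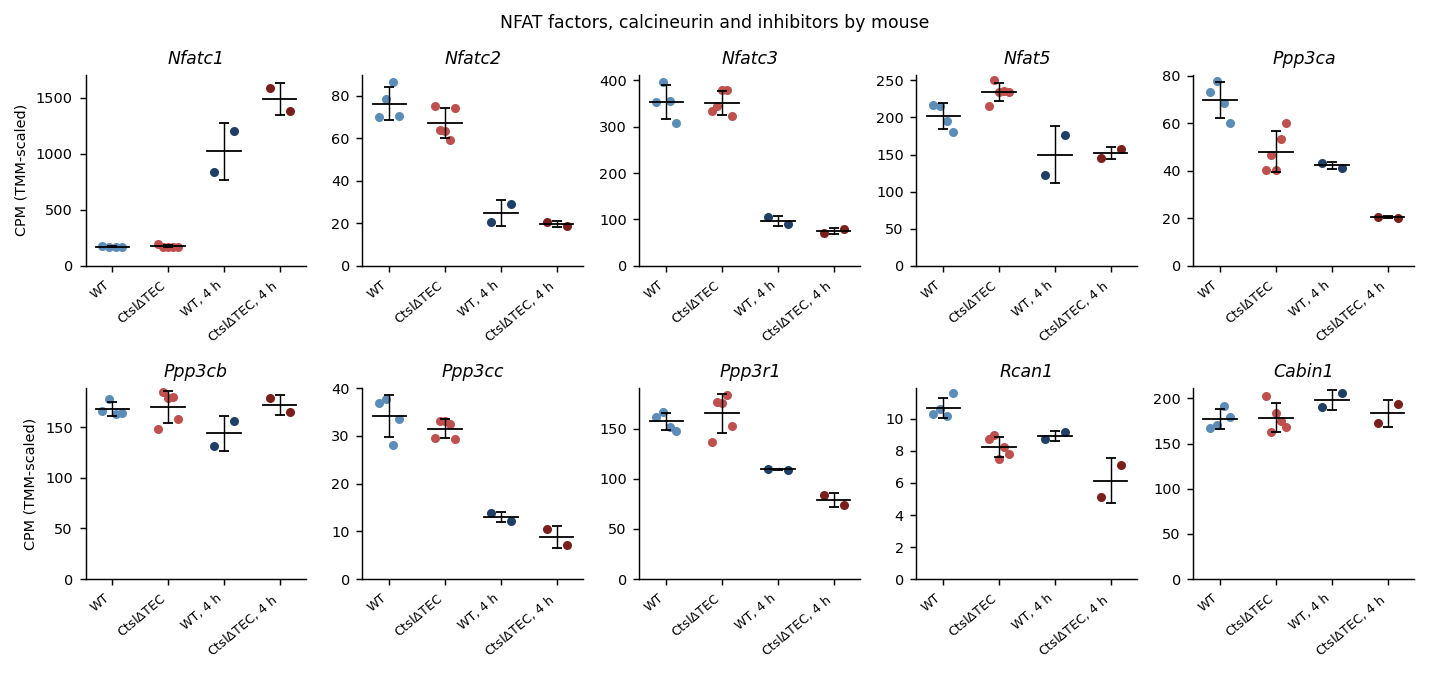
CPM of the 10 members in each mouse (points), with the mean (line) and SD (bars) of the 4 groups: 4 WT and 5 CtslΔTEC mice unstimulated, and 2 of each after 4 h of stimulation. Nfatc1 rose from 168 to 190 CPM to 839 to 1592 CPM, Nfatc2 and Nfatc3 fell in both genotypes, and Ppp3ca was lowest in the 2 stimulated CtslΔTEC mice.

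Nfatc1 (ENSMUSG00000033016) encodes the inducible member of the family. Its level in unstimulated WT mice 1 to 4 was 175, 170, 168 and 168 CPM, and in unstimulated CtslΔTEC mice 1 to 5 it was 190, 168, 170, 169 and 168 CPM. Stimulated WT mice 5 and 6 had 839 and 1204 CPM, and stimulated CtslΔTEC mice 6 and 7 had 1592 and 1386 CPM. The unstimulated mice lay within a narrow band irrespective of genotype, every stimulated mouse lay above all of them, and both stimulated CtslΔTEC mice lay above both stimulated WT mice. The log2 fold change on stimulation was 2.59 (SE 0.11, adjusted p = 8.1e-11, edgeR) in WT and 3.11 (SE 0.11, adjusted p = 4.4e-12, edgeR) in CtslΔTEC cells. Between stimulated CtslΔTEC and WT cells it was 0.54 (SE 0.14, adjusted p = 0.0219, edgeR). This last difference was lost without stimulated WT mouse 5, where it was 0.30 (adjusted p = 0.205, edgeR), and without stimulated CtslΔTEC mouse 6, where it was 0.44 (adjusted p = 0.184, edgeR), and it was 0.82 without stimulated WT mouse 6. With the 4 stimulated libraries alone it was 0.59 (adjusted p = 0.122, edgeR). The difference between the 2 responses was 0.52 (SE 0.16, adjusted p = 0.106, edgeR) and did not pass.

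The annotation gives Nfatc1 7 transcripts, which start at 3 places and end at different distances. Transcripts of a gene whose 5′ ends lay within 500 bases of each other were summed as 1 start-site group and numbered from the most upstream (S1). S1 of Nfatc1 corresponds to the upstream promoter of the inducible isoforms, and S2 lies 4898 bases downstream of it. In unstimulated cells S1 was at 0.722 to 3.02 CPM in the 4 WT mice and 1.67 to 4.05 CPM in the 5 CtslΔTEC mice, whereas S2 was at 165 to 171 and 165 to 185 CPM. In stimulated WT mice 5 and 6 S1 reached 538 and 751 CPM, and in stimulated CtslΔTEC mice 6 and 7 it reached 1033 and 938 CPM. S2 reached 300 and 449 CPM in the same WT mice and 552 and 444 CPM in the same CtslΔTEC mice. Both starts were thus higher after stimulation, S1 from a trace to the larger of both. The log2 fold change of S1 was 8.41 (SE 0.39, adjusted p = 3.2e-09, edgeR over all start-site groups) in WT and 8.12 (SE 0.35, adjusted p = 8.9e-10, edgeR) in CtslΔTEC cells, and that of S2 was 0.99 (SE 0.12, adjusted p = 1.8e-05, edgeR) and 1.35 (SE 0.11, adjusted p = 4.1e-07, edgeR). For S1 these were 7.95 at the lowest and 8.88 at the highest when 1 mouse at a time was left out. In mean TPM, S1 made up 0.939% of Nfatc1 in unstimulated WT and 1.65% in unstimulated CtslΔTEC cells, and 60.1% and 62.5% after stimulation. Over all members, 21 of 32 start-site groups tested passed in WT and 21 of 32 in CtslΔTEC cells on stimulation, against 51.7% and 56.8% of all 28745 start-site groups. Of the 32, 29 were also tested in unstimulated cells. S3 of Rcan1 was not among them and is counted as higher in WT.

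Each of S1 and S2 joins either a near or a far 3′ end, the near end giving the short protein. The S1 transcript with the near end, Nfatc1-206, held 0.0146% to 0.398% of the gene's TPM in unstimulated WT, 0.0128% to 1.94% in unstimulated CtslΔTEC, 54.0% and 55.6% in stimulated WT and 44.5% and 59.8% in stimulated CtslΔTEC mice. S2 transcripts with the far end held 68.2% to 76.5% of the gene in the 9 unstimulated mice, 34.3% and 37.0% in stimulated WT and 12.5% and 28.6% in stimulated CtslΔTEC mice. The largest transcript class of each unstimulated mouse was thus S2 with the far end, and that of each stimulated mouse S1 with the near end. The S2 transcript with the near end, Nfatc1-201, varied among the stimulated mice, from 0.0775% and 3.61% in the 2 WT mice to 22.1% in CtslΔTEC mouse 6 and 4.28% in CtslΔTEC mouse 7. Shares among transcripts of 1 start rest on kallisto's division of reads, for which the files hold no error, so they are given without a test. Counts of the start-site groups of 1 gene rest on the same division, and the tests of start-site groups do not include its error.

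**Figure D2:**
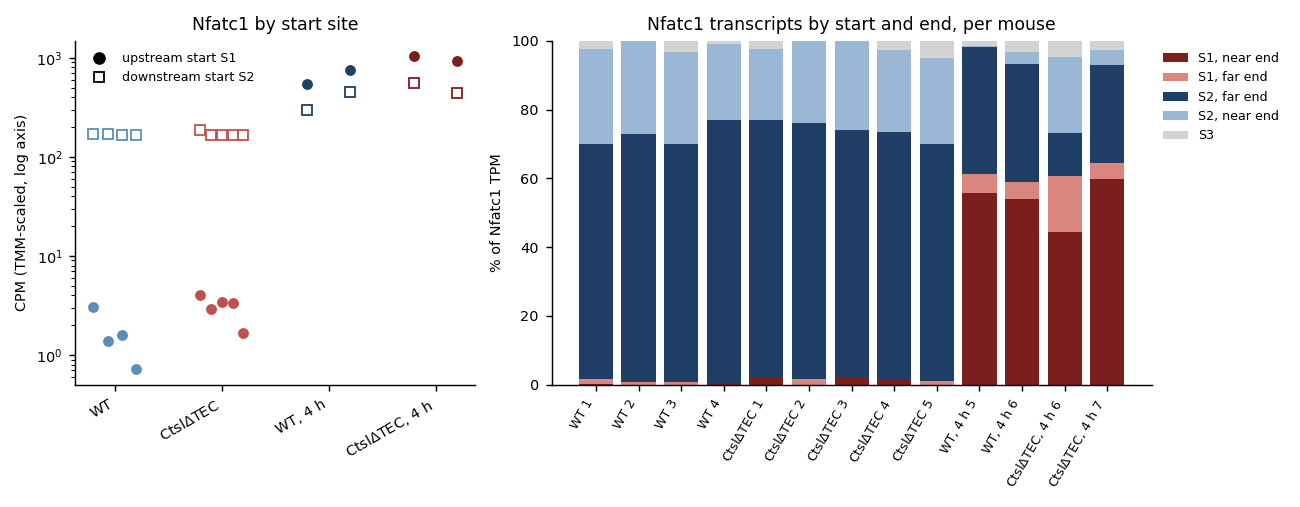
Left, CPM of the Nfatc1 start-site groups S1 (filled circles) and S2 (open squares) in each mouse of the 4 groups, on a log axis. Right, the percent of Nfatc1 TPM in each mouse by start and by 3′ end. S1 was at 0.722 to 4.05 CPM before and 538 to 1033 CPM after stimulation, and the S1 transcript with the near end held 44.5% to 59.8% of the gene after stimulation.

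Nfatc2 (ENSMUSG00000027544; GRCm38 chr2:168476410-168601657, minus strand) encodes NFAT1, the factor that is already present in resting T cells. It was at 69.9, 78.2, 86.5 and 70.5 CPM in unstimulated WT mice 1 to 4 and at 75.1, 63.7, 63.5, 59.3 and 74.4 CPM in unstimulated CtslΔTEC mice 1 to 5. It was at 20.6 and 29.0 CPM in stimulated WT and at 20.6 and 18.8 CPM in stimulated CtslΔTEC mice. The genotypes overlapped before stimulation, and all stimulated mice lay below all unstimulated ones. Nfatc2 fell by 1.59 on the log2 scale (SE 0.15, adjusted p = 2.7e-07, edgeR) in WT and by 1.77 (SE 0.15, adjusted p = 6.3e-08, edgeR) in CtslΔTEC cells. Between genotypes the log2 fold change was -0.18 (SE 0.09, adjusted p = 0.257, edgeR) unstimulated and -0.36 (SE 0.17, adjusted p = 0.224, edgeR) stimulated, so neither passed. Without stimulated WT mouse 5 the stimulated value was -0.57 (adjusted p = 0.0883, edgeR) and passed, and without stimulated WT mouse 6 it was -0.08 (adjusted p = 0.857, edgeR).

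The total of Nfatc2 sums starts that differed. S2 holds protein-coding transcripts and some with a retained intron, and S3, within the gene, is the start of a single transcript annotated as non-coding. S2 was at 18.5 and 21.4 CPM in stimulated WT and at 8.94 and 9.74 CPM in stimulated CtslΔTEC mice, with estimated counts of 140, 550, 98.6 and 154. The genotypes did not overlap for S2, and its log2 fold change was -1.17 (SE 0.17, adjusted p = 0.00273, edgeR over all start-site groups), between -1.23 and -1.08 with each of the 4 mice left out. S3 was at 2.12 and 7.49 CPM in stimulated WT and at 10.7 and 9.04 CPM in stimulated CtslΔTEC mice, the opposite order, and did not pass between genotypes. As a share of the gene's TPM, S2 made up 69.5% and 66.7% in unstimulated WT and CtslΔTEC cells, and 78.2% and 42.8% after stimulation. S3 made up 28.9% and 32.0% before and 21.1% and 51.9% after it, so that S2 was the larger in all groups but stimulated CtslΔTEC cells. The most upstream start, S1, was at or under 1.08 CPM in all libraries. When genes were summed over protein-coding transcripts alone, the stimulated difference of Nfatc2 was -1.10 and passed.

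Nfatc3 (ENSMUSG00000031902; GRCm38 chr8:106058840-106130537, plus strand) encodes NFAT4, the most abundant calcium-regulated NFAT transcript of the unstimulated cells. Its level was 354, 396, 356 and 307 CPM in unstimulated WT and 333, 344, 378, 380 and 323 CPM in unstimulated CtslΔTEC mice. After stimulation it was 105 and 89.9 CPM in WT and 70.1 and 79.0 CPM in CtslΔTEC mice. The genotypes overlapped before stimulation and not after it, when each had only 2 mice. Nfatc3 fell by 1.86 on the log2 scale (SE 0.12, adjusted p = 5.1e-09, edgeR) in WT and by 2.24 (SE 0.12, adjusted p = 5.0e-10, edgeR) in CtslΔTEC cells. Its difference between stimulated genotypes was -0.38 (SE 0.13, adjusted p = 0.0882, edgeR). That call was lost without stimulated WT mouse 5 (adjusted p = 0.425, edgeR), CtslΔTEC mouse 6 (adjusted p = 0.383, edgeR) or CtslΔTEC mouse 7 (adjusted p = 0.124, edgeR). Its main start S2 held 88.9% and 89.7% of the TPM in unstimulated WT and CtslΔTEC cells and 86.0% and 73.8% after stimulation. The upstream start S1 went from 14 to 30.6 CPM before to 1.32 and 3.11 CPM in stimulated WT and 4.78 and 5.75 CPM in stimulated CtslΔTEC mice. An intronic start, S4, of a transcript with a retained intron, was at 0.869 to 1.72 CPM before and 2.65 to 4.33 CPM after stimulation. Transcripts with retained introns held 2.45% and 3.38% of Nfatc3 TPM before and 12.5% and 18.5% after it.

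In TPM, Nfatc1, Nfatc2 and Nfatc3 together amounted to 152 ± 10.9 (SD, n = 4) in unstimulated WT, 156 ± 8.7 (SD, n = 5) in unstimulated CtslΔTEC, 312 ± 98.3 (SD, n = 2) in stimulated WT and 439 ± 46.3 (SD, n = 2) in stimulated CtslΔTEC cells. Nfatc3 was the largest of them in every unstimulated mouse, with 51.2% to 57.9% of the sum, and Nfatc1 in every stimulated mouse, with 89.5% to 95.4%. Nfatc2 went from 8.26% to 11.9% of the sum before stimulation to 0.991% to 1.6% after it.

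**Figure D3:**
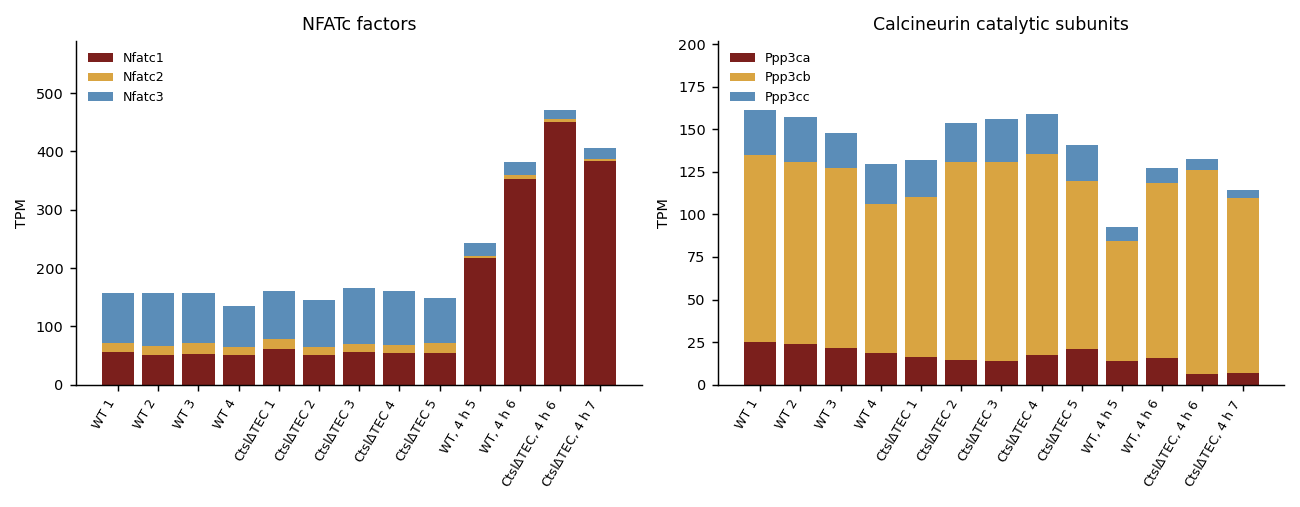
TPM of the NFATc factors (left) and of the calcineurin catalytic subunits (right) in each mouse, stacked. Nfatc3 was the largest NFATc share before stimulation and Nfatc1 after it, at 89.5% to 95.4% of the sum. Ppp3cb was the largest catalytic subunit in every mouse.

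Nfat5 (ENSMUSG00000003847; GRCm38 chr8:107293470-107379517, plus strand) was at 180 to 217 CPM in unstimulated WT and at 215 to 251 CPM in unstimulated CtslΔTEC mice. After stimulation it was at 123 and 177 CPM in WT and at 146 and 158 CPM in CtslΔTEC mice. It fell by 0.42 on the log2 scale (SE 0.13, adjusted p = 0.00909, edgeR) in WT and by 0.62 (SE 0.12, adjusted p = 0.000413, edgeR) in CtslΔTEC cells. The WT change rested on stimulated mouse 5, without which it was -0.21 (adjusted p = 0.171, edgeR), and was -0.73 without mouse 6. Among its starts, S1 went from 105 to 160 CPM before to 71.4 to 84.3 CPM after stimulation and fell by 0.73 in WT (SE 0.11, adjusted p = 0.000118, edgeR over all start-site groups) and by 0.96 in CtslΔTEC cells (SE 0.11, adjusted p = 7.2e-06, edgeR). S2 lay at 49.7 to 120 CPM before and 37.1 to 94.0 CPM after it, with ranges that overlap. It changed by -0.53 in WT (SE 0.35, adjusted p = 0.244, edgeR) and fell by 0.79 in CtslΔTEC cells (SE 0.35, adjusted p = 0.0776, edgeR), a call lost without unstimulated CtslΔTEC mouse 2, 3 or 4 or without stimulated CtslΔTEC mouse 6 or 7 (adjusted p up to 0.316, edgeR). S4 lay at 3.83 to 8.64 CPM before and 7.02 to 12.8 CPM after it. It rose by 0.70 in WT (SE 0.28, adjusted p = 0.0589, edgeR), a call lost without unstimulated WT mouse 1 or 3 or stimulated WT mouse 6, without which it was 0.29 (adjusted p = 0.583, edgeR), and changed by 0.32 in CtslΔTEC cells (adjusted p = 0.356, edgeR). Leaving out single mice was done for the members and not for the listed genes given below. Of 7 tested genes that NFAT5 is known to drive under osmotic stress, 2 rose on stimulation in each genotype, near the 32.9% of all genes that rose. These were the chaperone gene Hspa4l, from 33.8 to 49.8 CPM in unstimulated cells to 191 and 305 CPM in WT and 445 and 545 CPM in CtslΔTEC mice, and the inositol transporter gene Slc5a3, from 12.3 to 34.1 CPM to 64.7 and 93.5 CPM in WT and 127 and 145 CPM in CtslΔTEC mice. In CtslΔTEC cells 2 others, Slc38a2 and Slc6a6, fell. The response of Hspa4l was larger in CtslΔTEC cells by 1.18 on the log2 scale (SE 0.23, adjusted p = 0.0150 for the interaction, edgeR).

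On stimulation all 4 calcineurin subunits passed as lower in WT cells, and all but Ppp3cb in CtslΔTEC cells, where 34.8% and 38.2% of all genes fell. Ppp3cb (ENSMUSG00000021816; GRCm38 chr14:20499364-20546573, minus strand), the catalytic beta subunit, made up 67.7% to 75.6% of the catalytic TPM in the unstimulated and 76.1% to 90.5% in the stimulated mice. It was at 148 to 185 CPM in the unstimulated mice, at 132 and 156 CPM in stimulated WT and at 179 and 165 CPM in stimulated CtslΔTEC mice. The WT response was -0.22 (SE 0.11, 95% interval -0.443 to 0.007, adjusted p = 0.0849, edgeR). This call was lost without unstimulated WT mouse 2 (adjusted p = 0.103, edgeR) and without stimulated WT mouse 5 (-0.12). The value was -0.36 without stimulated WT mouse 6. In CtslΔTEC cells the response was 0.02, with a 95% interval from -0.20 to 0.23, and did not pass. Its main start S1 was at 138 to 174 CPM before and 126 to 164 CPM after stimulation. It fell by 0.40 in WT (SE 0.11, adjusted p = 0.00872, edgeR over all start-site groups), a call kept with each of 6 mice left out. In CtslΔTEC cells it fell by 0.23 (SE 0.10, adjusted p = 0.0906, edgeR), a call lost without unstimulated CtslΔTEC mouse 2, 3 or 4 or without stimulated CtslΔTEC mouse 6 or 7 (adjusted p up to 0.349, edgeR). Of its starts of transcripts with a retained intron, S6 was at 4.11 to 8.36 and 3.31 to 10.5 CPM and S3 at or under 0.812 CPM, and neither passed in the 4 comparisons of starts.

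Ppp3ca (ENSMUSG00000028161; GRCm38 chr3:136670124-136937727, plus strand), the catalytic alpha subunit, was the member whose level differed most between genotypes. It was at 73.3, 77.6, 68.5 and 59.9 CPM in unstimulated WT mice 1 to 4 and at 40.1, 46.6, 40.2, 53.4 and 60 CPM in unstimulated CtslΔTEC mice 1 to 5. Stimulated WT mice 5 and 6 had 43.2 and 41.2 CPM, and stimulated CtslΔTEC mice 6 and 7 had 20.7 and 20.1 CPM. Unstimulated WT mouse 4 and CtslΔTEC mouse 5 met at the edge of both groups, and the stimulated genotypes were clearly apart. The log2 fold change between genotypes was -0.54 (SE 0.12, adjusted p = 0.0165, edgeR) unstimulated and -1.05 (SE 0.19, adjusted p = 0.00316, edgeR) stimulated. The stimulated difference passed with each of the 4 mice left out, at -1.09 to -1.02, and the unstimulated one with each of 9 mice left out, at -0.63 to -0.48. With Y-linked transcripts as a covariate the unstimulated value was -0.52 (adjusted p = 0.342, edgeR), in a fit where only 1 WT mouse shares the sex of the CtslΔTEC mice; that mouse, WT mouse 3, had 68.5 CPM. Stimulation lowered Ppp3ca by 0.73 (SE 0.16, adjusted p = 0.000941, edgeR) in WT and by 1.24 (SE 0.16, adjusted p = 7.3e-06, edgeR) in CtslΔTEC cells. The responses differed by -0.51 (SE 0.22, adjusted p = 0.261, edgeR), which did not pass. Its main start, S1, was at 36.4 and 36.2 CPM in stimulated WT and 18.2 and 16.9 CPM in stimulated CtslΔTEC mice. S2 of Ppp3ca was at 2.19 to 5.51 CPM before, at 6.49 and 4.31 CPM in stimulated WT and at 2.44 and 3.16 CPM in stimulated CtslΔTEC mice, and passed in none of the 4. S7 was at or under 0.272 CPM and was not tested. Ppp3ca went from 14.8% of the catalytic TPM in unstimulated WT to 5.34% in stimulated CtslΔTEC cells, with 11.2% and 13.5% in unstimulated CtslΔTEC and stimulated WT cells.

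Ppp3cc (ENSMUSG00000022092; GRCm38 chr14:70217865-70289471, minus strand), the catalytic gamma subunit, was at 28.1 to 37.8 CPM in unstimulated WT and 29.4 to 33.2 CPM in unstimulated CtslΔTEC mice. It was at 13.8 and 12.2 CPM in stimulated WT and at 10.4 and 7.21 CPM in stimulated CtslΔTEC mice. It fell by 1.41 on the log2 scale (SE 0.15, adjusted p = 1.4e-06, edgeR) in WT and by 1.86 (SE 0.16, adjusted p = 6.5e-08, edgeR) in CtslΔTEC cells. The stimulated genotypes differed by -0.56 (SE 0.18, adjusted p = 0.0705, edgeR), a call lost without stimulated WT mouse 5 (-0.49, adjusted p = 0.272, edgeR) or CtslΔTEC mouse 7 (-0.32, adjusted p = 0.424, edgeR). Without stimulated CtslΔTEC mouse 6 it was -0.84.

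Ppp3r1 (ENSMUSG00000033953; GRCm38 chr11:17159263-17200375, plus strand) encodes the calcium-binding B subunit that all catalytic subunits need. It was at 162, 167, 152 and 148 CPM in unstimulated WT and at 137, 177, 176, 184 and 153 CPM in unstimulated CtslΔTEC mice. Stimulated WT mice had 110 and 109 CPM and stimulated CtslΔTEC mice 83.6 and 73.9 CPM. The genotypes overlapped before stimulation and were apart after it, when each had only 2 mice. Ppp3r1 fell by 0.53 on the log2 scale (SE 0.12, adjusted p = 0.001, edgeR) in WT and by 1.07 (SE 0.12, adjusted p = 9.4e-07, edgeR) in CtslΔTEC cells. The stimulated genotypes differed by -0.47 (SE 0.13, adjusted p = 0.0375, edgeR), a call lost without stimulated WT mouse 5 (adjusted p = 0.140, edgeR) or CtslΔTEC mouse 7 (adjusted p = 0.212, edgeR). The testis-type B subunit gene, Ppp3r2, was at 0 counts in all libraries. The ratio of Ppp3r1 TPM to the sum of the catalytic subunits was 0.534 ± 0.0188 (SD, n = 4) in unstimulated WT, 0.577 ± 0.0308 (SD, n = 5) in unstimulated CtslΔTEC, 0.472 ± 0.0694 (SD, n = 2) in stimulated WT and 0.301 ± 0.00574 (SD, n = 2) in stimulated CtslΔTEC cells.

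Rcan1 (ENSMUSG00000022951; GRCm38 chr16:92391953-92470867, minus strand) has 2 well-known promoters. The downstream one is the classic calcineurin and NFAT target, and both are shown because the data bear on which of them the cells used. The sequences run from 250 bases before to 50 bases after the start in RefSeq on GRCm38.p6. Capitals mark the NFAT core GGAAA or its complement TTTCC and the AP-1 site TGANTCA, searched on both strands. The upstream window (chr16:92466120-92466419, minus strand) is that of start-site group S2 and the downstream window (chr16:92400029-92400328, minus strand) that of S4.
Rcan1 upstream (S2): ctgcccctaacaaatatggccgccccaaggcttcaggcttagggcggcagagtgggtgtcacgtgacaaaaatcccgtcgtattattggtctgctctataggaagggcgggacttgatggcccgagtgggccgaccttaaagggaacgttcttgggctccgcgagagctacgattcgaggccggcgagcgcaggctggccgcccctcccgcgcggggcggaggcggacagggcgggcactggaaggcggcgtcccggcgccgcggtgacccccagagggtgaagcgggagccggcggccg
Rcan1 downstream (S4): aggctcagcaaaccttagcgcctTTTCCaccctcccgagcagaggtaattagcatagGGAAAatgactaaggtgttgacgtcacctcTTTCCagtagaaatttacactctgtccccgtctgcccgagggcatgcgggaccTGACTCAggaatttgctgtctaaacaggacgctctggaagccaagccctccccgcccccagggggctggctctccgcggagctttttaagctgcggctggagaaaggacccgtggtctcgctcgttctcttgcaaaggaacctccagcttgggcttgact
The upstream window held 0 NFAT cores and 0 AP-1 sites, and the downstream window 3 and 1. Of 32851 mouse promoter windows of 300 bases, 61.3% held at least 1 such core and 7.81% such an AP-1 site, so the core alone is common. Promoter windows were found for 7 of the 10 members, 10 windows in all; the AP-1 letters were in none but the downstream Rcan1 window. A match of letters is a description and not evidence of binding.

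The reads of Rcan1 fell on the upstream start. S2 was at 10.3, 10.5, 10.2 and 11.6 CPM in unstimulated WT, 8.60, 8.62, 7.26, 8.12 and 7.41 CPM in unstimulated CtslΔTEC, 8.74 and 8.12 CPM in stimulated WT and 5.15 and 7.15 CPM in stimulated CtslΔTEC mice. S4 had 1 estimated count summed over the 4 unstimulated WT mice and 8 over the 5 unstimulated CtslΔTEC mice. After stimulation it had 2 of 302 counts of the gene over both WT mice and 0 of 170 over both CtslΔTEC mice, and no library of any group had more than 4. A count of 0 allows up to 3 counts in a library. S4 holds a short transcript, so that these few counts still made up 1.24%, 8.13%, 5.48% and 0% of the gene's mean TPM in the order of the groups above. A rise of the inducible start was thus not detectable at this depth after 4 h of stimulation. S2 fell on stimulation by 0.51 on the log2 scale (SE 0.17, adjusted p = 0.0238, edgeR over all start-site groups) in WT and by 0.58 (SE 0.16, adjusted p = 0.00951, edgeR) in CtslΔTEC cells. These calls were lost without stimulated WT mouse 6 (adjusted p = 0.146, edgeR) and stimulated CtslΔTEC mouse 6 (-0.39, adjusted p = 0.134, edgeR), respectively. Another start, S3, passed as higher in stimulated WT cells on 25.2 counts in mouse 6 alone, with 0 in mouse 5.

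As a whole gene, Rcan1 was at 10.2 to 11.6 CPM in unstimulated WT and 7.52 to 8.97 CPM in unstimulated CtslΔTEC mice, which did not overlap. It was at 8.74 and 9.16 CPM in stimulated WT and 5.15 and 7.15 CPM in stimulated CtslΔTEC mice. The log2 fold change between genotypes was -0.37 (SE 0.09, adjusted p = 0.0254, edgeR) unstimulated and -0.54 (SE 0.18, adjusted p = 0.0772, edgeR) stimulated. The unstimulated call held with each of 9 mice left out, and was lost with Y-linked transcripts as a covariate (-0.29, adjusted p = 0.524, edgeR) and with an offset for transcript length (-0.27, adjusted p = 0.154, edgeR). The stimulated one was lost without stimulated WT mouse 5 (-0.57, adjusted p = 0.168, edgeR), WT mouse 6 (-0.50, adjusted p = 0.187, edgeR) or CtslΔTEC mouse 6 (-0.33, adjusted p = 0.419, edgeR), and was -0.81 without CtslΔTEC mouse 7. On stimulation the gene changed by -0.25 (95% interval -0.57 to 0.07, adjusted p = 0.157, edgeR) in WT, and fell by 0.42 (SE 0.15, adjusted p = 0.0225, edgeR) in CtslΔTEC cells, a call that needs stimulated CtslΔTEC mouse 6 (without it -0.23, adjusted p = 0.268, edgeR) and was -0.71 without mouse 7. Rcan3, the other calcineurin regulator of this family with more than a trace of expression, fell from 102 to 130 CPM in unstimulated mice to 44.3 and 46.7 CPM in stimulated WT and 30 and 31.6 CPM in stimulated CtslΔTEC mice. Rcan2 stayed at or under 0.699 CPM in all libraries.

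Cabin1 (ENSMUSG00000020196; GRCm38 chr10:75646112-75764341, minus strand) was at 163 to 203 CPM in the unstimulated mice and at 173 to 206 CPM in the stimulated mice. It passed in none of the 5 comparisons. The 95% intervals were -0.05 to 0.38 for the WT response, -0.16 to 0.25 for the CtslΔTEC response, -0.15 to 0.18 for genotype unstimulated and -0.36 to 0.14 for genotype stimulated, all on the log2 scale. Its main start S1, with 43.6% to 47.4% of the mean TPM of each group, changed by -0.04 in WT (SE 0.09, adjusted p = 0.744, edgeR over all start-site groups) and by -0.23 in CtslΔTEC cells (SE 0.09, adjusted p = 0.0452, edgeR), the latter lost without stimulated CtslΔTEC mouse 6 (adjusted p = 0.256, edgeR). Some other starts changed more. Of these, S3 holds a protein-coding transcript. S4 and S8 hold transcripts with a retained intron or marked for nonsense-mediated decay, and S9 holds non-coding ones. S9 held 38.1% of the mean TPM in unstimulated WT cells. S3, which lies within the gene, rose by 1.12 in WT (SE 0.24, adjusted p = 0.00164, edgeR) and by 0.76 in CtslΔTEC cells (SE 0.23, adjusted p = 0.0133, edgeR), the latter lost without stimulated CtslΔTEC mouse 7 (0.45, adjusted p = 0.257, edgeR). S4 rose by 1.06 in WT (adjusted p = 0.0677, edgeR) and by 1.61 in CtslΔTEC cells (adjusted p = 0.00476, edgeR), from 0.551 to 1.93 CPM to 2.25 to 5.51 CPM. The WT call was lost without unstimulated WT mouse 1 or 4 or stimulated WT mouse 5 or 6 (adjusted p up to 0.313, edgeR), and the other without stimulated CtslΔTEC mouse 6 (adjusted p = 0.104, edgeR). S8 rose by 0.97 in WT (adjusted p = 0.0299, edgeR), a call lost without stimulated WT mouse 6 (adjusted p = 0.141, edgeR), and changed by 0.57 in CtslΔTEC cells (adjusted p = 0.156, edgeR). S9, at the 3′ side, fell by 1.98 in WT (SE 0.32, adjusted p = 0.000182, edgeR) and by 1.93 in CtslΔTEC cells (SE 0.31, adjusted p = 0.000164, edgeR), from 4.05 to 7.64 CPM to 1.26 to 1.75 CPM.

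**Figure D4:**
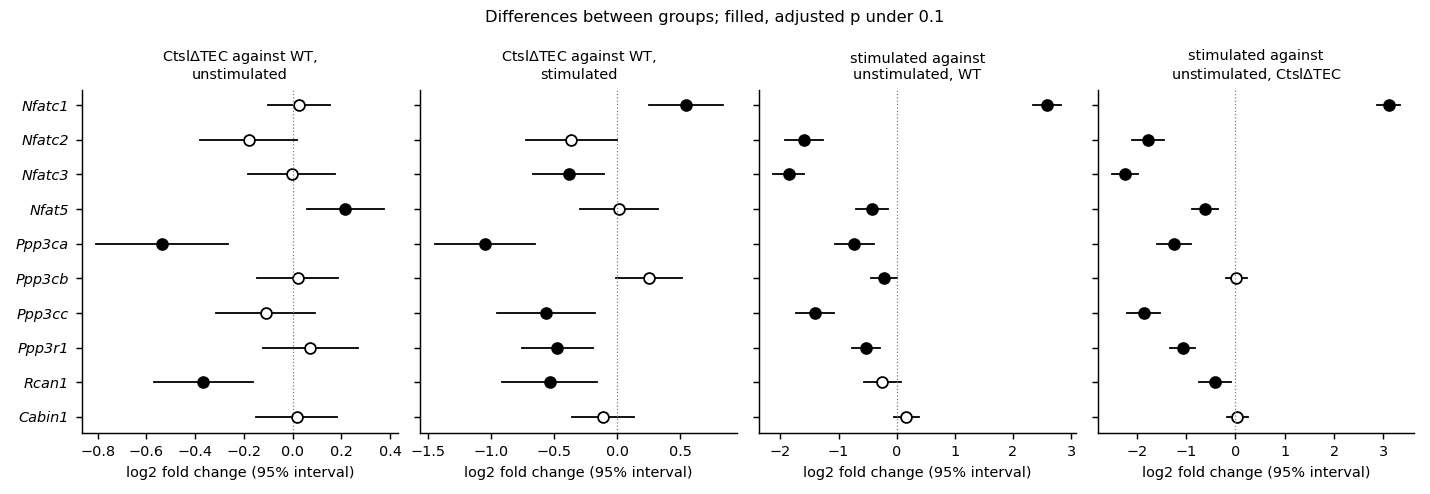
Log2 fold changes of the members with their 95% intervals in 4 comparisons. Filled points passed an adjusted p of 0.1 (edgeR): 3 of 10 between unstimulated genotypes, 6 of 10 between stimulated genotypes, and 8 of 10 in each response.

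The genotype comparisons as a whole were smaller. In unstimulated cells 3 of 10 members passed, against 14.8% of all 13152 genes. Ppp3ca and Rcan1 were lower in CtslΔTEC cells, and Nfat5 was higher by 0.22 (SE 0.07, adjusted p = 0.0836, edgeR). The call of Nfat5 was lost when any 1 of 6 mice (WT 3 and 4, CtslΔTEC 2 to 5) was left out, with adjusted p up to 0.193. With Y-linked transcripts as a covariate 0 of 10 passed, with 2 at an unadjusted p under 0.05, while DESeq2 without that covariate called 3. The unstimulated libraries carry 2 dates, and 3 members passed both with date as a factor and within the second date alone, while the first date holds a single WT mouse. In stimulated cells 6 of 10 passed, against 13.3% of all 14241 genes. Of these, 5 were lower in CtslΔTEC cells (10.6% of all genes were), namely Ppp3ca, Ppp3r1, Ppp3cc, Rcan1 and Nfatc3, and Nfatc1 was higher. Leaving out 1 stimulated mouse at a time left 2 to 5 members, with 2 without WT mouse 5 and 3 without CtslΔTEC mouse 6 or 7, and Ppp3ca passed each time. Among start-site groups, 2 of 29 members' groups passed in unstimulated cells, against 6.24% of all 25268 groups, and 5 of 32 in stimulated cells, against 6.93%. The 2 were S1 of Ppp3ca and S2 of Rcan1, and the 5 were S2 of Nfatc2, S1 of Ppp3ca, S2 of Nfatc3, S1 of Ppp3r1 and S1 of Ppp3cc, all lower in CtslΔTEC cells. The call of S2 of Rcan1 was lost without unstimulated CtslΔTEC mouse 5 (adjusted p = 0.102, edgeR). The 5 became 2 without WT mouse 5, 9 without WT mouse 6 and 3 without either CtslΔTEC mouse, and S2 of Nfatc2 and S1 of Ppp3ca passed each time. The interaction of genotype and stimulation passed for 1 of 10 members, against 6.01% of all genes. This was Ppp3r1 at -0.54 (SE 0.16, adjusted p = 0.0783, edgeR), a call lost when any of 10 of the 13 mice was left out, with adjusted p up to 0.246.

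The genes around the members were grouped by role. The counts on stimulation stand against 32.9% of all genes that rose and 34.8% that fell in WT, and 32.9% and 38.2% in CtslΔTEC cells. Of 13 tested partners of calcineurin and of the calcium release that activates it, 3 rose and 8 fell on stimulation in WT and 4 rose and 8 fell in CtslΔTEC cells. Their median log2 fold change was -0.60 and -0.61, and that of all genes 0.01 and -0.06. The inositol trisphosphate receptor genes Itpr2 and Itpr3 were among those that fell, by 2.52 and 2.49 in WT and by 2.64 and 2.70 in CtslΔTEC cells on the log2 scale. The genes of the immunophilins that carry FK506 and cyclosporin, Fkbp1a and Ppia, rose by 0.83 and 0.67 in WT and by 1.12 and 0.85 in CtslΔTEC cells. Between genotypes the third receptor gene, Itpr1, differed most. It was at 127 to 162 CPM in unstimulated WT and 59.2 to 67.6 CPM in unstimulated CtslΔTEC mice (log2 fold change -1.12, SE 0.08, adjusted p = 4.6e-06, edgeR), and at 38.7 and 50.1 against 21.9 and 27.1 CPM after stimulation (-0.86, SE 0.15, adjusted p = 0.00262, edgeR). In unstimulated CtslΔTEC cells Fkbp1a was also lower and Itpr2 higher. After stimulation Rcan3 and Calm3 were lower, and Rcan3 also differed in its response (interaction -0.65, SE 0.14, adjusted p = 0.0195, edgeR).

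Of 13 kinases that phosphorylate NFAT and so oppose calcineurin, 8 fell and 2 rose in WT, and 8 fell and 3 rose in CtslΔTEC cells. The total called, 10 of 13 in WT and 11 of 13 in CtslΔTEC cells, stands against 67.7% and 71.2% of all genes. Prkacb, a catalytic subunit of protein kinase A, went from 286 to 375 CPM in unstimulated mice to 91.7 and 109 CPM in stimulated WT and 65.2 and 66.9 CPM in stimulated CtslΔTEC mice. The export kinase gene Gsk3b fell by 1.26 (SE 0.09, adjusted p = 1.4e-08, edgeR) and by 1.57 (SE 0.09, adjusted p = 7.9e-10, edgeR), and Mapk8, which encodes JNK1, rose in both. In stimulated CtslΔTEC cells 4 of the 13 were lower than in WT, against 10.6% of all genes, among them Mapk14, which encodes p38α, at 103 and 110 against 141 and 170 CPM. Of 9 tested genes of NFAT retention and nuclear transport, 3 rose and 5 fell in each genotype, so that the share that rose was near the 32.9% of all genes. The importin gene Kpnb1, the importin-alpha export receptor gene Cse1l and the proteasome gene Psmd11 rose in both, and the scaffold genes Iqgap1 and Homer3 fell in both. The exportin gene Xpo1 was at 145 and 170 CPM in stimulated CtslΔTEC against 109 and 116 CPM in stimulated WT mice.

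Of 13 genes of other calcineurin substrates and of Cabin1 partners that were also tested in unstimulated cells, 4 rose and 7 fell in WT and 5 rose and 6 fell in CtslΔTEC cells, where 32.9% of all genes rose in each and 34.8% and 38.2% fell. The related factor genes Tfe3 and Tfeb went in opposite directions. Tfe3 was at 15.3 to 19.9 CPM before and 64.2 to 74.8 CPM after stimulation, while Tfeb was at 9.83 to 17.1 CPM before, and at 2.72 and 3.57 CPM in stimulated WT and 0.903 and 1.77 CPM in stimulated CtslΔTEC mice. Crtc3, a CREB coactivator, was lower in CtslΔTEC cells both unstimulated (-0.21, SE 0.07, adjusted p = 0.0698, edgeR) and stimulated (-0.48, SE 0.11, adjusted p = 0.0104, edgeR). Among 14 partners of NFAT on DNA that were also tested in unstimulated cells, 5 rose and 4 fell in each genotype, against 67.7% and 71.2% of all genes called. Irf4 went from 23.2 to 82.6 CPM to 2091 and 2131 CPM in stimulated WT and 1555 and 1610 CPM in stimulated CtslΔTEC mice. The AP-1 gene Fosl2 was at 5.73 to 12.6 CPM in unstimulated WT and 1.35 to 2.60 CPM in unstimulated CtslΔTEC mice, and at 331 and 420 against 433 and 493 CPM after stimulation. The stimulated difference did not pass (0.30, adjusted p = 0.563, edgeR), and the responses differed (interaction 2.50, SE 0.35, adjusted p = 0.00377, edgeR). Gata3 and Maf, which direct type 2 helper genes, were lower in CtslΔTEC cells in both states.

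Most tested transcriptional targets of NFAT rose. Of 20 listed genes 11 were abundant enough to be tested in unstimulated cells, and 10 of them rose on stimulation in WT and 10 in CtslΔTEC cells, where 32.9% of all genes rose in each. The median log2 fold change of the 11 was 3.49 and 3.21. The genes Il2, Ifng, Ccl3, Ccl4 and Xcl1, at or under 0.278 CPM before stimulation, entered the test only through the stimulated libraries and are not counted, since they had to be higher there. The 1 that did not pass was Tox, at 124 to 196 CPM before and 155 to 180 CPM after stimulation. Tnfrsf9 went from 0.232 to 1.14 CPM to 547 to 740 CPM, Il2ra from 2.01 to 12.9 CPM to 671 to 804 CPM, and Pdcd1, which encodes PD-1, from 3.29 to 5.88 CPM to 117 to 214 CPM. Of the members described above as having an NFAT-responsive promoter, Nfatc1 rose from its upstream start and Rcan1 did not rise. Between genotypes most tested targets did not pass. Of 16 tested in stimulated cells 2 were higher and 2 lower in CtslΔTEC cells, against 13.3% of all genes called in either direction. Of 11 tested in unstimulated cells 2 were higher and 2 lower, against 14.8%. In stimulated CtslΔTEC cells Il2 was at 3.07 and 5.75 CPM against 50.7 and 54.4 CPM in WT (log2 fold change -3.55, SE 0.34, adjusted p = 5.9e-05, edgeR) and Tnfrsf4 was also lower, while Pdcd1 and Ccl4 were higher. In unstimulated CtslΔTEC cells Il2ra and Ctla4 were higher and Cd40lg and Fasl lower. Of the remaining targets, Il3 was at or under 0.0632, Il4 at or under 0.181, Csf2 at or under 0.265 and Il21 at or under 0.971 CPM in all libraries.

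**Figure D5:**
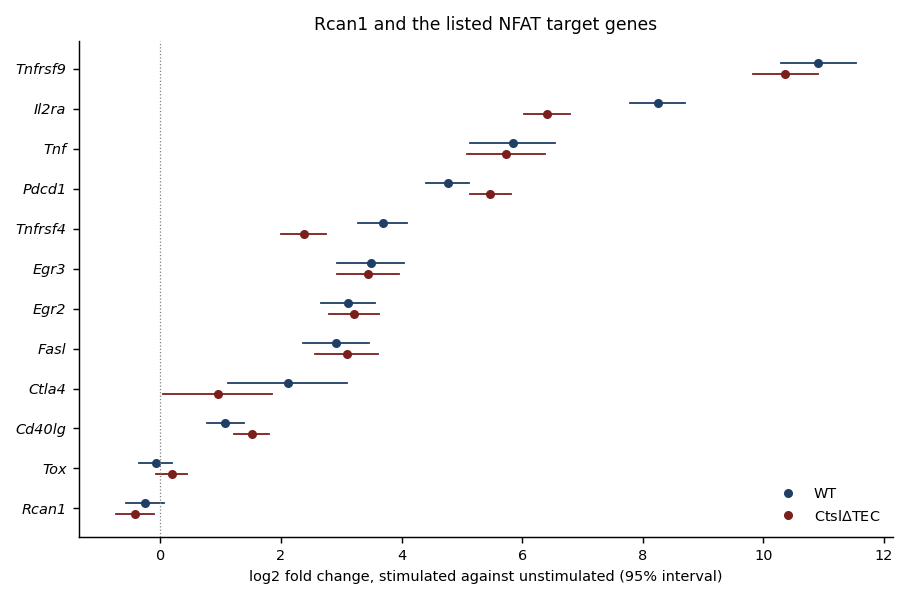
Log2 fold change on stimulation, with its 95% interval, of Rcan1 and the 11 NFAT target genes that were also tested in unstimulated cells, in WT and CtslΔTEC cells. Rcan1 was at -0.25 and -0.42, and 10 of the 11 targets rose in each genotype. The fitted folds of genes with few counts before stimulation, such as Tnfrsf9, depend on the prior count.

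The 13 libraries fall into stimulated and unstimulated ones, and this difference can make up a large part of a correlation over all of them. The genes whose levels followed the members most closely were found by Pearson correlation of log2 CPM over these libraries. For Nfatc1 these were Sh2b3, Myo1c and Cdk17 (r = 0.998, 0.997 and 0.997), for Nfatc2 Sema4a, Pml and Tmem221 (r = 0.993, 0.992 and 0.991), for Nfatc3 Ulk2, Cmah and Ehhadh (r = 0.998, 0.997 and 0.997), and for Rcan1 Rbfa, Ubtd1 and Slc7a7 (r = 0.951, 0.946 and 0.937). Over the 9 unstimulated libraries alone the 3 genes of Nfatc1 had r = 0.229, 0.245 and -0.336. Those of Nfatc2 had r = 0.860, 0.833 and 0.789, and those of Nfatc3 r = 0.752, 0.761 and 0.873. Those of Rcan1 had r = 0.966, 0.857 and 0.901. Nfatc1 barely varied among unstimulated mice.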

How the data were processed

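RNA of sorted thymocytes was sequenced in 13 libraries. The authors quantified transcripts with kallisto 0.48 (version from the submitters' processing notes) against Ensembl 106. Per transcript the authors deposited an estimated count, a TPM value and an effective length, none normalized between libraries. The labels name polyA RNA where the study's methods describe rRNA depletion, and call Ctsl fl/fl what the paper writes as Ctsl+/+. Groups and mouse numbers were taken from the labels.

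Of 117497 transcripts, 116397 were paired with a gene through GENCODE M21 (GRCm38), an older annotation than the authors'; the 1100 others held at most 0.461% of counts. The deposited estimated counts were summed to genes and to start-site groups (5′ ends within 500 bases) and rounded, and the deposited TPM were summed without rounding. R 4.3.3 and edgeR 4.0.16 (TMM, filterByExpr, quasi-likelihood test) compared 9 unstimulated libraries, and all 13 in a 4-group model for the other comparisons. DESeq2 1.42.0 was an alternative. The SE was taken as the absolute log2 fold change over the square root of F. The methods were tested on simulated data. A count of 0 allows up to 3 counts. Limits of this kind cover counting error only. The labels do not say whether the mice shared litters.

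The members and the gene lists were chosen with earlier results of these data known, and no list is independent support. Named were all members, member starts with at least 5% of the gene's TPM in some group where a member has several, up to 3 called genes per list and direction with the smallest p and a mean of at least 1 log2 CPM, the 3 genes most correlated with each of Nfatc1, Nfatc2, Nfatc3 and Rcan1, and Ctsl, Rag1, Cd4, Cd69 and Il2. Nfatc4, Rcan2, Ppp3r2, Tox, the low cytokine genes and the starts of Ppp3r1 and Ppp3cc were named after their values were seen. The values of 1 listed gene are not reported here. Promoter windows came from RefSeq on GRCm38.p6.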

Additional observations from a re-analysis of the deposited data

Results flagged for a closer look

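Nfatc1 in unstimulated CtslΔTEC mouse 1 was at 7.57 log2 CPM, apart from the other 4 mice of its group at 7.39 to 7.41. It was the only one of 20 groups of 4 or 5 mice looked at, 2 per member, in which 1 mouse stood this far off, and chance gives about 1 in 20.

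The response of Ppp3r1 to stimulation differed between genotypes by -0.54 on the log2 scale (interaction, adjusted p = 0.0783, edgeR over all 13 libraries, 2 stimulated mice per genotype). Ppp3r1 fell by 0.53 in WT and by 1.07 in CtslΔTEC cells. The result rests on few mice and was lost in 10 of 13 fits that each left out 1 mouse.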

How the results depend on the processing

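The genotype calls depended on the settings and the response calls less so. Between unstimulated genotypes 3 members passed, 0 with Y-linked transcripts as a covariate (2 at an unadjusted p under 0.05; DESeq2 without it called 3), 1 with a replicate block by mouse number, and 2 to 3 without each mouse. Between stimulated genotypes 6 passed, 3 at an adjusted p under 0.05, 3 with upper-quartile factors, 3 after thinning to the smallest total, 2 with the 4 stimulated libraries alone, and 2 to 5 without each mouse. The interaction passed for 1, for 0 at an adjusted p under 0.05 and 0 after thinning (4 at an unadjusted p under 0.05 in each; DESeq2 called 2), 2 with DESeq2, 2 with upper-quartile factors, 3 with protein-coding transcripts alone, and 0 to 2 without each mouse. Start-site groups that passed without each mouse were 1 to 3 between unstimulated and 2 to 9 between stimulated genotypes. Counts for both responses stayed within 6 to 9 members and 16 to 24 start-site groups. No single value that passed changed sign. The labels do not say whether mouse numbers pair the samples. Deviations of mice 1 to 4 of both unstimulated groups correlated at -0.14, 0.30, -0.07 and -0.15, which does not settle it. Over all genes the share of calls that were higher moved from 43.4% to 56.8% with library totals alone and 28.1% with the Y-linked covariate (unstimulated genotypes), from 20.8% to 36.6% with at least 10 counts in every library and 35.1% after thinning (stimulated genotypes), and from 18.8% to 29.4% with DESeq2, 29.3% with at least 10 counts and 32.9% after thinning (interaction). The median log2 fold change of all genes in the CtslΔTEC response moved from -0.06 to -0.21 with library totals alone, -0.17 with no filter and 0.04 after thinning. The cause was not tested. Having 2 stimulated mice per genotype, 1 of them at 8085463 counts, limits the stimulated comparison.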
